A study of Mus musculus with 3 samples.

Results

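Insulin and the insulin-like growth factors (IGFs) act through shared receptors and adaptors, and 9 mouse genes of this system are described here: Igf1, Igf2, Igfbp4, Igfbp5, Pappa2, Insr, Igf1r, Irs1 and Irs2. The symbols were looked up among the 32285 genes of the deposited counts, all 9 were found, and their transcripts were summed by cell class in each library. The data were 3 single-cell RNA-seq libraries of hand-picked pancreatic islets from mice 9 months old, 1 labelled ASF-KO, 1 labelled SC35-KO and 1 wild type (WT). ASF (now SRSF1) and SC35 (now SRSF2) are SR proteins, which bind exons and steer splicing, and the series' title links them to diabetes. The labels give no strain, no driver of the deletions, no cell type in which they act and no number of mice per library. ASF-KO and SC35-KO are used as the names of the libraries so labelled. The genes were chosen with their levels in these libraries known, so every value is a description. Each genotype had 1 library, so there was no replicate and no test, and the 95% intervals given cover counting error alone.

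IGF1 and IGF2 are secreted ligands that travel bound to IGF binding proteins, and proteases that cut the binding proteins set the ligands free. The ligands act through the IGF1 receptor and, like insulin, through the insulin receptor. Both receptors are tyrosine kinases that phosphorylate the adaptors IRS1 and IRS2 and so start the PI3K, Akt and MAPK cascades. In islets the pathway is known for its part in the growth and survival of beta cells, and mice that lack Irs2 become diabetic. Pappa2 encodes pappalysin 2, a metalloprotease known to cleave IGFBP5 and IGFBP3.

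Promoter windows reaching from 250 bases before to 50 bases after the annotated start were read from RefSeq on GRCm38.p6, where 8 of the 9 genes had 11 windows. Insr had no entry. The windows of Pappa2 and Igfbp5 are printed because these genes had wide gaps between libraries in beta-like cells, and those of Irs1 and Irs2 because they shared a motif. Capitals mark that motif, the E-box CACGTG, and the letters run 5′ to 3′ on the minus strand in all 4.
Pappa2 (chr1:158958126-158958425): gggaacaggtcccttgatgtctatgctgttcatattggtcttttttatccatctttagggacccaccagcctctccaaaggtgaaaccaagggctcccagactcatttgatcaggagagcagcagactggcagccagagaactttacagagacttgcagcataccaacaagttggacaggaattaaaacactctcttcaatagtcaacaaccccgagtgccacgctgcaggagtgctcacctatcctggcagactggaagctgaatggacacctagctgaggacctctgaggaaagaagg
Igfbp5 (chr1:72874816-72875115): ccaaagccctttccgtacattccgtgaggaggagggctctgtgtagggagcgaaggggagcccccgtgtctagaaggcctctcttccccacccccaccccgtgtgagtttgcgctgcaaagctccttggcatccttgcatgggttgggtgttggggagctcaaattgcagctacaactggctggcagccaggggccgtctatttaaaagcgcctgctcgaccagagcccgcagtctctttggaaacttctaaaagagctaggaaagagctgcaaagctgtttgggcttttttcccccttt
Irs1 (chr1:82291390-82291689): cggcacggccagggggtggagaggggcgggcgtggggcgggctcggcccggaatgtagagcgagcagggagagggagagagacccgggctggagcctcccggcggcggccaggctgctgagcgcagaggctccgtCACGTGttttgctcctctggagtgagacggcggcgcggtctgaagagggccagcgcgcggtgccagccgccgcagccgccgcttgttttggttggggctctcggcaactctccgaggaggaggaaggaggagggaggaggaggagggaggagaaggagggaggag
Irs2 (chr8:11008880-11009179): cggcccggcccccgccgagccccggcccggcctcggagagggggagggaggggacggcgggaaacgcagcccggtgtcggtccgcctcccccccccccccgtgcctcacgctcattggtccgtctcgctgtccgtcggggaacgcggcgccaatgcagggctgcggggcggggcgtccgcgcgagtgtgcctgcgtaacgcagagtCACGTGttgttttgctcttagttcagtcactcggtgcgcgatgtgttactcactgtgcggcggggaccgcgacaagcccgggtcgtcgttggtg
The E-box lay at -115 from the start of Irs1 and at -44 from that of Irs2, and 7.15% of all 32851 windows held it. The 10-base stretch gtCACGTGtt was common to Irs1 and Irs2 and was found in 25 windows on either strand, or 0.0761% of all. A second stretch of the same length, tgttttgctc, was also common to both, and it overlaps the first in each of these windows. It was found in 14 windows on the gene's own strand, where the first was found in 16. The TATA box TATAAA was found in Igfbp4, at -28, and in 13.6% of all windows. The forkhead motif GTAAACA (3.65% of all windows) and the cAMP response element TGACGTCA (1.79%) were matched in none of the 11 windows. Each motif was searched on both strands as these exact letters, so near variants were not counted. The Pappa2 and Igfbp5 windows held no exact match to any of the 4. GC content was 49.7% in Pappa2 with 2 CpG sites, 56.3% in Igfbp5 with 10, 71.3% in Irs1 with 28 and 72.0% in Irs2 with 41, and the median over all windows was 52.7% with 7 sites. The Pappa2 window lies inside the gene as GENCODE draws it (chromosome 1, 158711727 to 158980490, GRCm38), so the annotations differ on where the gene starts. They differ for other members too. The Igf1 window lies inside its gene, and the Irs2 and Igf1r windows lie wholly before the start of theirs. Offsets such as that of the Irs2 E-box are from the RefSeq start. On GRCm38 GENCODE places Igfbp5 (72857932 to 72874884) and Irs1 (82233101 to 82291416) on chromosome 1, Igf1r (67952827 to 68233668) and Igf2 (142650766 to 142666816) on chromosome 7, Insr (3122061 to 3279617) and Irs2 (10984681 to 11008458) on chromosome 8, Igf1 (87858265 to 87937042) on chromosome 10 and Igfbp4 (99041244 to 99054392) on chromosome 11.

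The libraries held 148320213 to 154099078 unique molecular identifiers (UMIs, 1 per captured transcript), and 7082 cells in ASF-KO, 10799 in SC35-KO and 8997 in WT were kept, with medians of 16965 UMIs in ASF-KO, 9871 in SC35-KO and 14300 in WT. Between 75 and 88 barcodes of each library also occurred in another. Cells were classed by hormone shares and marker counts. Beta-like cells numbered 3938 in ASF-KO, 5069 in SC35-KO and 4740 in WT, and alpha-like cells 1405 in ASF-KO, 2513 in SC35-KO and 1238 in WT. Delta-like cells numbered 488 in ASF-KO, 1111 in SC35-KO and 557 in WT, gamma-like cells 116 in ASF-KO, 299 in SC35-KO and 267 in WT and endothelial-like cells 416 in ASF-KO, 384 in SC35-KO and 645 in WT. These 5 classes had at least 100 cells in every library. Of each class's own markers 8 or 9 of 10 were highest in beta-like cells, 9 of 9 in alpha-like, 8 of 9 in delta-like and 12 of 12 in endothelial-like cells, but 4 of 8 in gamma-like cells. The gates themselves used Ins1, Ins2, Gcg, Sst, Ppy and the 12 endothelial markers, so these genes do not check the class names. Srsf1 stood at 37.1 counts per 1000000 UMIs of the class (CPM) in beta-like cells in ASF-KO and 38.6 CPM in WT. Srsf2 stood at 26.6 CPM in those in SC35-KO and 27.6 CPM in WT. The kit counts 3′ ends, which may lie outside a deleted exon, so these levels do not check the labels. Insulin took 63.7% of beta-like UMIs in ASF-KO, 63.3% in SC35-KO and 53.6% in WT, and the median gene stood at 0.741 times WT in ASF-KO and 0.739 times WT in SC35-KO. Ratios are therefore also given relative to the median gene, over genes with at least 10 CPM in at least 1 of the 2 sums (called measured). A gene counted as higher or lower from 1.5-fold on that scale.

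**Figure D1:**
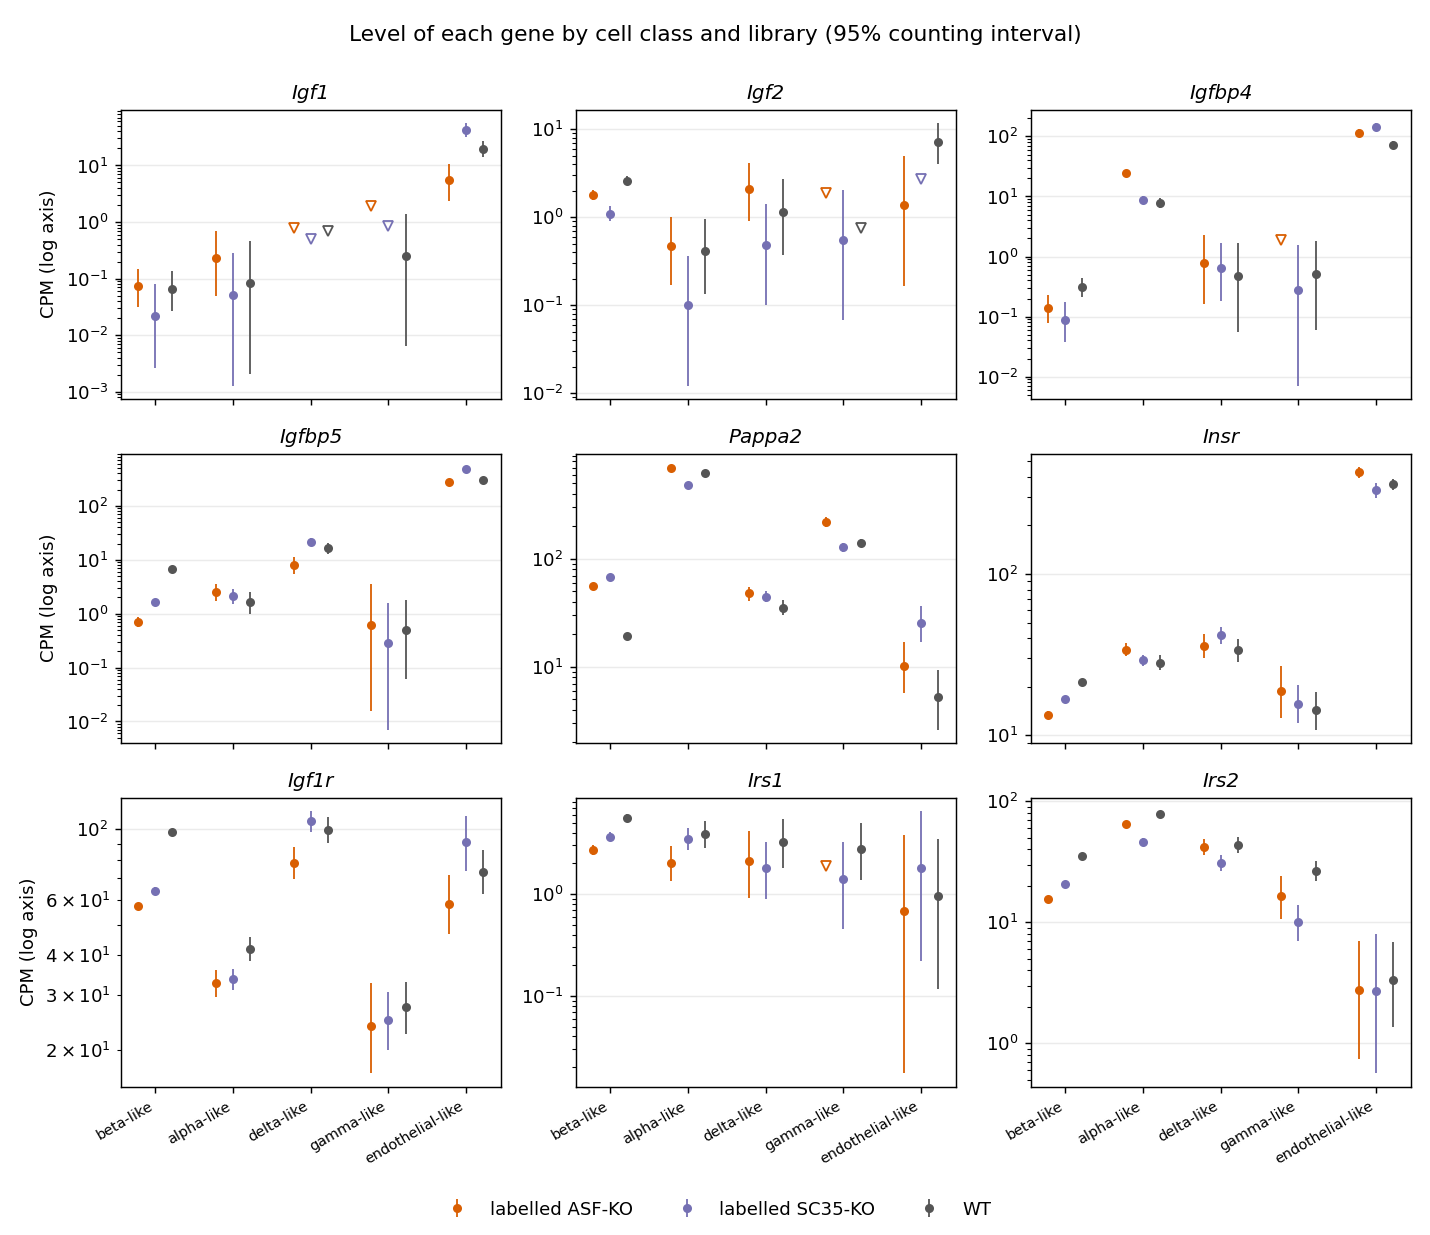
Level of each of the 9 genes (CPM, log axis, with its own scale in each panel) in the 5 large cell classes, for the libraries labelled ASF-KO and SC35-KO and for WT. Points are summed UMIs of 1 library with the exact 95% Poisson interval, and open triangles mark the level that 3 UMIs would give where no UMI was found. Of these classes, Pappa2 was highest in alpha-like cells of every library (487 to 699 CPM), and Insr, Igfbp4 and Igfbp5 in endothelial-like cells.

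The ligand genes were scarce in the endocrine classes. Igf1 gave 8 UMIs in all beta-like cells in ASF-KO, 2 in those in SC35-KO and 7 in WT, and none in delta-like cells, where 3 UMIs would be 0.794 CPM in ASF-KO, 0.491 in SC35-KO and 0.699 in WT. Endothelial-like cells held 5.48 CPM (2.37 to 10.8) in ASF-KO, 42.7 (31.4 to 56.8) in SC35-KO and 19.7 (14.1 to 26.7) in WT. The 3 intervals do not overlap: ASF-KO was lowest, at 0.278 (0.113 to 0.602) times WT, and SC35-KO highest, at 2.17 (1.40 to 3.39) times WT. These sums rest on 8 UMIs in ASF-KO, 47 in SC35-KO and 41 in WT. Ductal-like cells, which numbered 8 in ASF-KO, 38 in SC35-KO and 80 in WT, held 86.3 CPM in ASF-KO, 113 in SC35-KO and 57.4 in WT. Fibroblast-like cells, which numbered 6 in ASF-KO, 20 in SC35-KO and 34 in WT, held 264 CPM in ASF-KO, 139.7 in SC35-KO and 219 in WT. Several of the islet's other cell types thus carried Igf1, each with few cells, and macrophage-like cells, which numbered 30 in ASF-KO, 88 in SC35-KO and 135 in WT, held 19.3 CPM in ASF-KO, 23.1 in SC35-KO and 45.4 in WT. The ductal-like levels rest on 5 Igf1 UMIs in ASF-KO, 46 in SC35-KO and 54 in WT. Fibroblast-like cells gave 5 UMIs in ASF-KO, 6 in SC35-KO and 26 in WT, and macrophage-like cells 2, 7 and 30 in that order.

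Igf2, the second ligand, was mostly counted in beta-like cells, which held 88.7% of its 221 UMIs in ASF-KO, 85.6% of 118 in SC35-KO and 81.3% of 343 in WT. Beta-like cells also held most UMIs of all genes in each library, so these shares reflect class size too. Pericyte-like cells had a higher Igf2 level, with 4 UMIs among 101604 in ASF-KO, 2 among 89716 in SC35-KO and 7 among 242065 in WT. Endothelial-like cells held 1.37 CPM on 2 UMIs in ASF-KO, 0 in SC35-KO and 7.20 CPM on 15 UMIs in WT. The Igf2 level in beta-like cells was 1.80 CPM (1.56 to 2.07) in ASF-KO, 1.10 (0.899 to 1.34) in SC35-KO and 2.60 (2.30 to 2.92) in WT, below the minimum for a measured gene. Its log2 ratio to WT relative to the median gene was -0.10 (-0.37 to 0.17) for ASF-KO and -0.80 (-1.14 to -0.47) for SC35-KO. The second value was -0.43, inside 1.5-fold, in beta-like cells with Gcg under 0.05% of UMIs, an alternative chosen after the data were seen. Igf2 lies 11839 bases from Ins2 on chromosome 7, and the antisense gene Igf2os overlaps it, with 2 UMIs in ASF-KO, 5 in SC35-KO and 6 in WT in the same cells. Whether counting used the strand is not given in the sources used here, so the split of reads between the pair is uncertain.

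Igfbp4, whose protein is known to hold IGFs away from their receptor, stood out in alpha-like cells in ASF-KO. Its level there was 24.7 CPM (22 to 27.6), against 8.82 (7.56 to 10.2) in SC35-KO and 7.84 (6.34 to 9.58) in WT. The first interval lies above both others, and the ratio to WT was 3.15 (2.50 to 4.003), or 1.61 on the log2 scale relative to the median gene. For SC35-KO the ratio to WT was 1.13 (0.872 to 1.46), which includes 1. At 2000 UMIs per cell, 5.004% of alpha-like cells in ASF-KO had an Igfbp4 UMI, against 1.46% in SC35-KO and 1.88% in WT. The class was unevenly made up: 84.9% of alpha-like cells in ASF-KO and 66.5% in WT fell in joint cluster 13, while 93.6% of those in SC35-KO fell in cluster 14. Fibroblast-like cells held more Igfbp4, with 950.0 CPM in ASF-KO, 1002 in SC35-KO and 1489 in WT. The 8 fibroblast markers summed to 20.4 CPM in ASF-KO, 12.2 in SC35-KO and 18.4 in WT in alpha-like cells. Those at 0 numbered 6 in ASF-KO, 1 in SC35-KO and 2 in WT. The gate had left out of the alpha-like class any cell with at least 3 of these markers, which limits the sums. The part of fibroblast-like RNA in the Igfbp4 level was not tested. In endothelial-like cells Igfbp4 was at 114 CPM (97.1 to 132) in ASF-KO, 145 (123 to 169) in SC35-KO and 72 (60.9 to 84.5) in WT, so both KO-labelled libraries lay above WT. Relative to the median gene the log2 values were 0.61 for ASF-KO and 0.93 for SC35-KO, and the first came inside 1.5-fold under the stricter filter (0.54), the looser filter (0.58) and equal cell weights (0.49).

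Igfbp5, the binding protein that pappalysin 2 is known to cut, was highest in endothelial-like and pericyte-like cells. Endothelial-like cells held 274 CPM (248 to 302) in ASF-KO, 490.0 (449.5 to 533) in SC35-KO and 299 (276 to 323) in WT. The library labelled SC35-KO stood above WT at 1.64 (1.46 to 1.85) times, which relative to the median gene came inside 1.5-fold under the stricter gate and with equal cell weights. Few cells carried the transcript, as a UMI was found in 27 cells in ASF-KO, 48 in SC35-KO and 65 in WT of this class. Pericyte-like cells, which numbered 43 in ASF-KO, 49 in SC35-KO and 96 in WT, held 629.9 CPM in ASF-KO, 769 in SC35-KO and 541 in WT. Delta-like cells held 7.94 CPM (5.35 to 11.3) in ASF-KO, 21.6 (18.1 to 25.6) in SC35-KO and 16.3 (12.7 to 20.6) in WT. Here ASF-KO was the low one, at 0.487 (0.306 to 0.757) times WT.

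In beta-like cells Igfbp5 gave 77 UMIs in ASF-KO, 148 in SC35-KO and 717 in WT. As a level this was 0.708 CPM (0.559 to 0.885) in ASF-KO, 1.62 (1.37 to 1.90) in SC35-KO and 6.68 (6.20 to 7.19) in WT. Both KO-labelled libraries were below WT, at 0.106 (0.0827 to 0.134) times for ASF-KO and 0.242 (0.202 to 0.289) times for SC35-KO. The gene was under the 10 CPM minimum in each library, so it does not enter the count of members. Relative to the median gene the log2 ratios were -2.81 (-3.16 to -2.47) for ASF-KO and -1.61 (-1.87 to -1.35) for SC35-KO, the second being -2.57 in cells with Gcg under 0.05% of UMIs. At 2000 UMIs per cell, 0.0773% of beta-like cells in ASF-KO had an Igfbp5 UMI, 0.318% in SC35-KO and 1.26% in WT. Markers of the cells rich in Igfbp5 moved with it: the 12 endothelial markers summed to 6.39 CPM in ASF-KO, 6.86 in SC35-KO and 16.9 in WT in beta-like cells and the 10 pericyte markers to 0.551 CPM in ASF-KO, 0.732 in SC35-KO and 1.71 in WT, with none at 0. At the ratio of Igfbp5 to those markers in their own classes, the sums would carry 0.0706 CPM in ASF-KO, 0.148 in SC35-KO and 0.240 in WT of Igfbp5 from endothelial-like and 0.0190 CPM in ASF-KO, 0.0232 in SC35-KO and 0.0518 in WT from pericyte-like cells. The measured level was 0.708 CPM in ASF-KO, 1.62 in SC35-KO and 6.68 in WT. The gate had left out of the beta-like class any cell with at least 5 of the endothelial or 3 of the pericyte markers. Both marker sums, and the carried amounts set from them, are limited by that. The carried amounts also assume that free RNA keeps the ratio of its source class, and the part of free RNA in the Igfbp5 levels was not tested.

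Pappa2, the protease gene, was highest in alpha-like cells in all 3 libraries. Alpha-like cells held 699 CPM (685 to 714) in ASF-KO, 487 (477 to 497) in SC35-KO and 628 (614 to 643) in WT. Gamma-like cells held 219.9 CPM (197 to 244) in ASF-KO, 128 (116 to 140.1) in SC35-KO and 139.6 (128 to 152) in WT, and delta-like cells 47.9 CPM (41.2 to 55.4) in ASF-KO, 44.7 (39.6 to 50.3) in SC35-KO and 35.4 (29.99 to 41.5) in WT. In these 3 classes no KO-labelled library differed from WT by 1.5-fold relative to the median gene. Of all Pappa2 UMIs, alpha-like cells held 53.9% in ASF-KO, 52.4% in SC35-KO and 62.8% in WT and beta-like cells 36.6% in ASF-KO, 34.2% in SC35-KO and 17.1% in WT.

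In beta-like cells Pappa2 was higher in both KO-labelled libraries than in WT. Its 6065 UMIs in ASF-KO gave 55.7 CPM (54.3 to 57.2), its 6265 in SC35-KO gave 68.5 (66.8 to 70.2) and its 2080 in WT gave 19.4 (18.6 to 20.2). The intervals of WT and the KO-labelled libraries do not overlap, and the ratios to WT were 2.88 (2.74 to 3.03) for ASF-KO and 3.53 (3.36 to 3.72) for SC35-KO. Relative to the median gene the log2 ratios were 1.96 (1.88 to 2.03) for ASF-KO and 2.26 (2.19 to 2.33) for SC35-KO, at the 99.8 and 99.95 percentiles of measured genes. At 2000 UMIs per cell, 9.51% (8.60 to 10.5) of beta-like cells in ASF-KO had a Pappa2 UMI, against 11.9% (11 to 12.8) in SC35-KO and 2.98% (2.51 to 3.51) in WT. Without thinning the shares were 50.6% in ASF-KO, 53.7% in SC35-KO and 21.6% in WT, at median depths of 26533.5 UMIs in ASF-KO, 17308 in SC35-KO and 22328 in WT. The tenth of beta-like cells with the most Pappa2 held 50.7% of its UMIs in ASF-KO, 43.5% in SC35-KO and 73.6% in WT. At equal depth, more beta-like cells thus had a Pappa2 UMI in the KO-labelled libraries. Both kinds of share also depend on the level of the gene, and spread at a matched level was not compared.

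**Figure D2:**
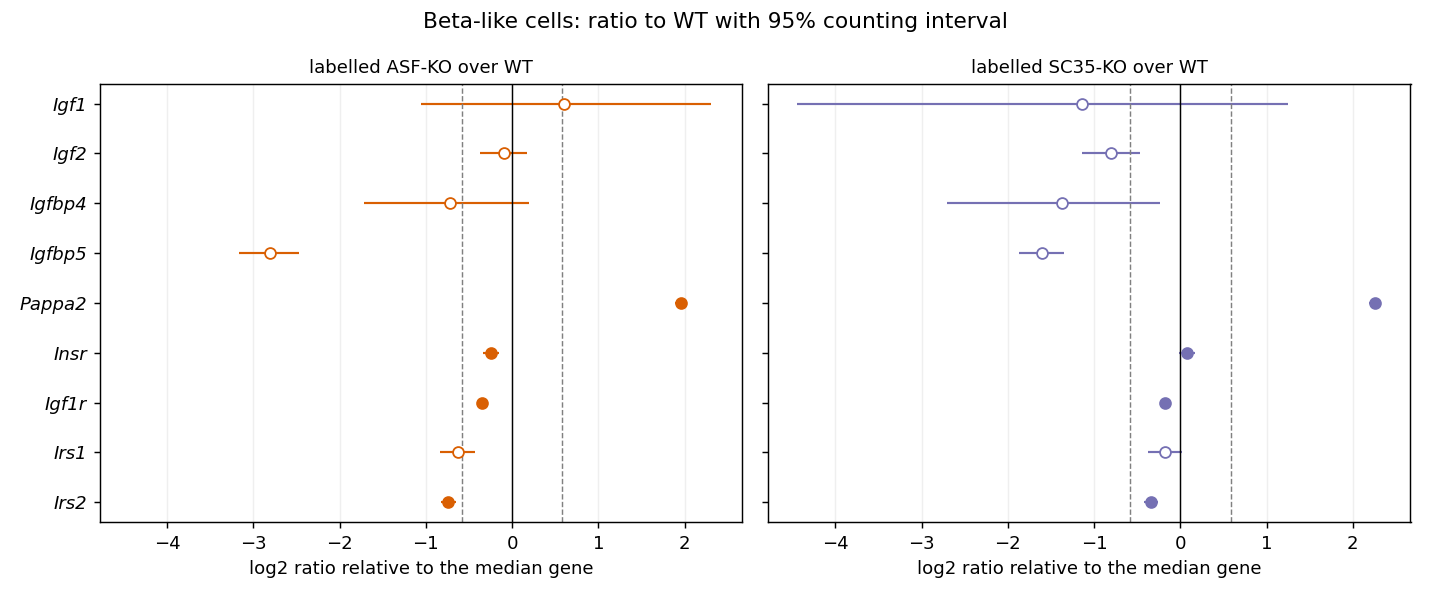
Log2 ratio to WT in beta-like cells, relative to the median gene, for the libraries labelled ASF-KO and SC35-KO. Bars are exact 95% counting intervals, filled points are measured genes, open points are below the 10 CPM minimum, and dashed lines mark 1.5-fold. Pappa2 lies at 1.96 for ASF-KO and 2.26 for SC35-KO, and Igfbp5 at -2.81 for ASF-KO and -1.61 for SC35-KO.

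Because alpha-like cells hold so much Pappa2, free RNA from them was followed through Gcg, the glucagon gene. Gcg stood at 732 CPM in beta-like cells in ASF-KO, 1035 in SC35-KO and 991 in WT. At the ratio of Pappa2 to Gcg in alpha-like cells, these amounts would carry 2.32 CPM in ASF-KO, 1.92 in SC35-KO and 3.30 in WT of Pappa2, against the 55.7 CPM in ASF-KO, 68.5 in SC35-KO and 19.4 in WT measured. These amounts assume that free RNA keeps the ratio seen in alpha-like cells, and the part of free RNA in the Pappa2 levels was not tested. In beta-like cells with Gcg under 0.05% of UMIs the log2 ratio relative to the median gene was 1.89 for ASF-KO and 2.25 for SC35-KO. In endothelial-like cells, taken as the background for shares, 2.96% in ASF-KO, 5.10% in SC35-KO and 1.12% in WT of cells had a Pappa2 UMI at 2000 UMIs per cell, with median depths of 3354.5 UMIs in ASF-KO, 2463 in SC35-KO and 2966 in WT before thinning. Their levels were 10.3 CPM (5.75 to 16.9) in ASF-KO, 25.5 (16.9 to 36.8) in SC35-KO and 5.28 (2.64 to 9.45) in WT, on 15 UMIs in ASF-KO, 28 in SC35-KO and 11 in WT, and Gcg there would carry 7.43 CPM in ASF-KO, 5.53 in SC35-KO and 4.68 in WT. On the log2 scale relative to the median gene these were 0.91 for ASF-KO and 2.19 for SC35-KO. With Leiden clusters in place of gates they were -0.95 for ASF-KO and 0.47 for SC35-KO, so neither endothelial-like difference held in that setting.

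**Figure D3:**
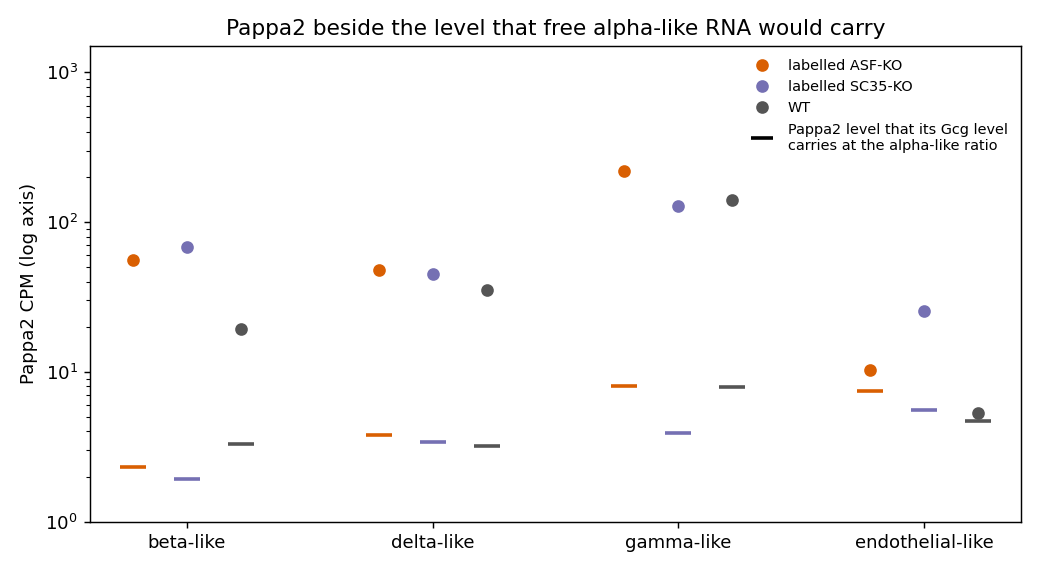
Pappa2 level (CPM, log axis) in beta-like, delta-like, gamma-like and endothelial-like cells of the libraries labelled ASF-KO and SC35-KO and of WT (points), beside the level that Gcg transcripts in those cells would carry at the ratio seen in alpha-like cells (dashes). In beta-like cells the points stand at 55.7 CPM in ASF-KO, 68.5 in SC35-KO and 19.4 in WT and the dashes at 2.32 CPM in ASF-KO, 1.92 in SC35-KO and 3.30 in WT.

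Beta-like cells of the 3 libraries fell largely in different joint clusters: 47.7% of those in ASF-KO in cluster 2, 72.4% of those in SC35-KO in cluster 6 and 50.7% of WT in cluster 3, which is led by the metallothionein genes Mt1 and Mt2. Clusters 1, 2, 3 and 6 each held at least 100 beta-like cells of every library, so levels could be set side by side within them. Pappa2 was higher in both KO-labelled libraries than in WT in each of the 4. Within cluster 3 it stood at 45.6 CPM (39.8 to 52.1) in ASF-KO, 72 CPM (65.1 to 79.5) in SC35-KO and 15.8 CPM (14.8 to 16.9) in WT. In cluster 1 the levels were 75.9 CPM in ASF-KO, 124 in SC35-KO and 28.6 in WT, in cluster 2 57.5 CPM in ASF-KO, 95.5 in SC35-KO and 18.1 in WT and in cluster 6 39.3 CPM in ASF-KO, 63.5 in SC35-KO and 13.4 in WT. Igfbp5 was lower in ASF-KO than in WT in all 4, with 0.818 CPM in ASF-KO against 4.68 in WT in cluster 1, 0.506 CPM in ASF-KO against 4.02 in WT in cluster 2, 1.68 CPM in ASF-KO against 7.81 in WT in cluster 3 and 1.16 CPM in ASF-KO against 8.34 in WT in cluster 6. In SC35-KO its intervals lay below those of WT in clusters 2, 3 and 6 and overlapped in cluster 1, where 7 UMIs gave 3.49 CPM (1.40 to 7.18).

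**Figure D4:**
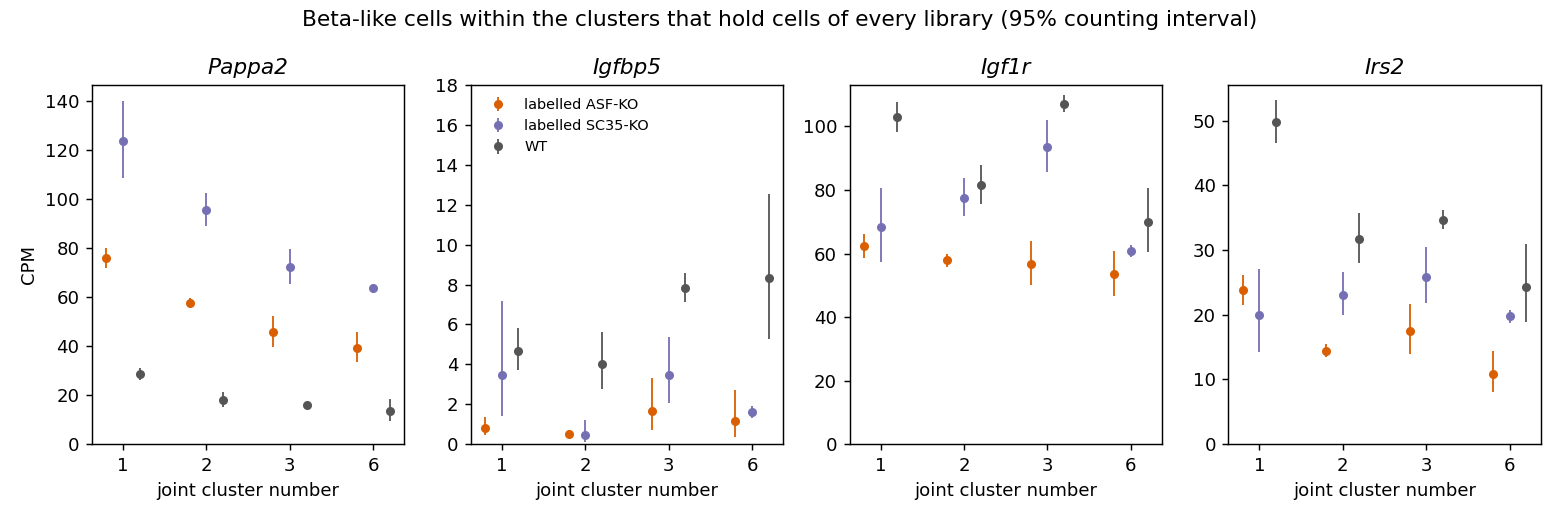
Levels (CPM) of Pappa2, Igfbp5, Igf1r and Irs2 in beta-like cells of the libraries labelled ASF-KO and SC35-KO and of WT, within the 4 joint clusters that hold at least 100 beta-like cells of each library. Points are sums over the cells of 1 library and bars exact 95% Poisson intervals. WT has the lowest Pappa2 point of each cluster (13.4 to 28.6 CPM) and the highest Igfbp5, Igf1r and Irs2 points, although for Igf1r SC35-KO stands above WT in clusters 2 and 6 once hormone and mitochondrial transcripts are left out of the total (257 CPM in SC35-KO against 239 in WT, and 226 CPM in SC35-KO against 217 in WT).

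Insr, the insulin receptor gene, was highest in endothelial-like cells among the large classes. They held 428 CPM (395 to 463) in ASF-KO, 330.0 (297 to 366) in SC35-KO and 359.5 (334 to 386) in WT, and 46.6% in ASF-KO, 39.2% in SC35-KO and 40.9% in WT of them had an Insr UMI at 2000 UMIs per cell. Beta-like cells held 13.4 CPM (12.7 to 14.1) in ASF-KO, 16.7 (15.9 to 17.6) in SC35-KO and 21.4 (20.6 to 22.3) in WT. WT was highest on CPM, but relative to the median gene the log2 ratio was -0.25 (-0.34 to -0.15) for ASF-KO and 0.08 (-0.01 to 0.17) for SC35-KO, both inside 1.5-fold. Alpha-like cells held 34 CPM in ASF-KO, 29.2 in SC35-KO and 28.2 in WT, delta-like cells 35.7 CPM in ASF-KO, 41.6 in SC35-KO and 33.5 in WT and gamma-like cells 18.9 CPM in ASF-KO, 15.7 in SC35-KO and 14.3 in WT, and in delta-like and gamma-like cells all 3 intervals overlap.

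Igf1r, the IGF1 receptor gene, was mostly counted in beta-like cells, which gave 84.2% of its UMIs in ASF-KO, 72.5% in SC35-KO and 82% in WT. These cells also held most UMIs of all genes in each library, so the shares reflect class size too. Its beta-like level was 57 CPM (55.6 to 58.5) in ASF-KO, 64.1 (62.4 to 65.7) in SC35-KO and 98 (96.2 to 99.9) in WT. WT was the highest, and relative to the median gene the log2 ratios were -0.35 (-0.39 to -0.30) for ASF-KO and -0.18 (-0.22 to -0.13) for SC35-KO, both inside 1.5-fold. Delta-like cells held 78.6 CPM (69.9 to 88) in ASF-KO, 106 (98.1 to 115) in SC35-KO and 99.7 (90.4 to 109.6) in WT, so ASF-KO was lowest there too. Endothelial-like levels were 58.2 CPM in ASF-KO, 90.9 in SC35-KO and 73.4 in WT, alpha-like levels 32.6 CPM in ASF-KO, 33.6 in SC35-KO and 42 in WT and gamma-like levels 23.9 CPM in ASF-KO, 24.9 in SC35-KO and 27.4 in WT. The endothelial-like value for ASF-KO, -0.38 relative to the median gene, was -0.71 and past 1.5-fold with Leiden clusters. Of the large classes, delta-like cells had the most Igf1r on CPM, with intervals that overlap those of beta-like cells in WT, and beta-like cells once hormone and mitochondrial transcripts were left out of the total.

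Irs1, the first of the adaptor genes, stood at 2.69 CPM (2.39 to 3.02) in beta-like cells in ASF-KO, 3.66 (3.28 to 4.08) in SC35-KO and 5.62 (5.18 to 6.08) in WT, under the 10 CPM minimum. Its ratio to WT was 0.479 (0.416 to 0.552) for ASF-KO and 0.652 (0.569 to 0.746) for SC35-KO, and relative to the median gene -0.63 for ASF-KO and -0.18 for SC35-KO on the log2 scale. The first of these came inside 1.5-fold with no CPM minimum (-0.53) and with equal cell weights (-0.55). In the other large classes Irs1 was at 3.88 CPM or less.

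Irs2, the adaptor known to matter most in mouse beta cells, was lower in both KO-labelled libraries than in WT in beta-like cells. Its level was 15.7 CPM (15 to 16.5) in ASF-KO, 20.5 (19.6 to 21.5) in SC35-KO and 35.3 (34.2 to 36.4) in WT. The ratios to WT were 0.445 (0.420 to 0.471) for ASF-KO and 0.582 (0.551 to 0.616) for SC35-KO. Relative to the median gene the log2 ratio was -0.74 (-0.82 to -0.65) for ASF-KO, past 1.5-fold, and -0.34 (-0.42 to -0.26) for SC35-KO, inside it. At 2000 UMIs per cell 3.63% in ASF-KO, 4.69% in SC35-KO and 7.26% in WT of beta-like cells had an Irs2 UMI, beside 0.539% in ASF-KO, 0.392% in SC35-KO and 0.374% in WT of endothelial-like cells. Alpha-like cells held 64.8 CPM (60.4 to 69.4) in ASF-KO, 46.4 (43.4 to 49.5) in SC35-KO and 78.5 (73.6 to 83.6) in WT, with the SC35-KO value at -0.56 relative to the median gene, just inside 1.5-fold, and -0.59, just past it, with Leiden clusters. Gamma-like cells held 16.3 CPM (10.7 to 23.9) in ASF-KO, 10.1 (7.07 to 14) in SC35-KO and 26.6 (21.8 to 32.2) in WT, and here both were past 1.5-fold, at -1.09 for ASF-KO and -1.29 for SC35-KO. Delta-like cells held 42.1 CPM in ASF-KO, 31 in SC35-KO and 43.5 in WT. On CPM, WT thus had the highest Irs2 level in each endocrine class. The ASF-KO interval reached into that of WT for gamma-like cells, and it did so for delta-like cells too. With hormone and mitochondrial transcripts left out of the total, the delta-like order turned, with ASF-KO at 1.05 times WT. The gamma-like levels rest on 26 Irs2 UMIs in ASF-KO, 36 in SC35-KO and 106 in WT.

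Counted over the members in beta-like cells, 4 of the 9 genes (Pappa2, Insr, Igf1r and Irs2) were measured. For ASF-KO over WT, 1 was higher (Pappa2) where 9.05% of 6577 measured genes were, and 1 was lower (Irs2) where 8.13% were. For SC35-KO over WT, 1 was higher (Pappa2) where 3.55% of 6542 measured genes were, and 0 were lower where 2.55% were. The median of the 4 was -0.30 for ASF-KO and -0.05 for SC35-KO on the log2 scale, where all genes have a median of 0. So few genes, chosen with their values known, cannot be read against those shares.

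In alpha-like cells 1 of 5 measured members was higher for ASF-KO (Igfbp4), where 4.33% of genes were higher and 6.75% lower, and none of 4 was past 1.5-fold for SC35-KO, where 2.6% were higher and 2.62% lower. In delta-like cells 1 of 5 was lower for ASF-KO (Igfbp5; 6.21% of genes higher and 8.26% lower) and none for SC35-KO (3.86% and 4.51%). In gamma-like cells 2 of 4 were lower for ASF-KO (Igf1r and Irs2; 9% higher and 11.2% lower) and 1 of 4 for SC35-KO (Irs2; 5.36% and 7.22%). Igf1r was at the edge there, at -0.59 on 38 UMIs in ASF-KO and 109 in WT, and came inside 1.5-fold in 6 alternatives, down to -0.19 with equal cell weights. In endothelial-like cells 2 of 6 were higher and 1 lower for ASF-KO (Igfbp4 and Pappa2, and Igf1), where 10.1% of genes were higher and 13% lower. The Pappa2 value there rests on 15 UMIs in ASF-KO and 11 in WT, its ratio to WT was 1.95 (0.835 to 4.68), which includes 1, and its direction reversed in 4 alternatives. For SC35-KO 4 of 6 were higher there (Igf1, Igfbp4, Igfbp5 and Pappa2), where 9.44% of genes were higher and 10.9% lower. Both comparisons share the WT library.

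Within each library, beta-like cells were also split into 3 equal groups by the share of insulin in their UMIs (low, middle and high), with levels set over the total without hormone and mitochondrial transcripts. Pappa2 was highest in the high-insulin group in every library. It stood at 256 (247 to 266) CPM in the high group against 156 (149 to 164) in the low group in ASF-KO, 289.7 (278 to 301) against 218 (208 to 228) in SC35-KO, and 58.9 (54.9 to 63.2) against 47 (43.4 to 50.8) in WT. Insr was lower in the high group, with 42 against 51.4 CPM in ASF-KO, 53.9 against 62.3 in SC35-KO and 49.1 against 62.9 in WT, where the SC35-KO intervals overlap. Irs2 was lower as well, with 48.8 against 60.4 CPM in ASF-KO, 69.2 against 76.8 in SC35-KO and 87 against 96.3 in WT, where the intervals of SC35-KO and of WT overlap. Cells of the high group were deeper, with medians of 30884.5 against 21643 UMIs in ASF-KO, 20597 against 13557 in SC35-KO and 25376 against 18936.5 in WT, and the part of depth was not tested. The Pappa2 gap between the KO-labelled libraries and WT was there in each insulin group: the lowest KO-labelled group had 156 CPM, above the 58.9 CPM of the highest WT group. For Insr the order of SC35-KO and WT was not the same in each group, with 62.3 CPM in SC35-KO against 62.9 in WT in the low group. In the high group it was 53.9 CPM in SC35-KO against 49.1 in WT.

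**Figure D5:**
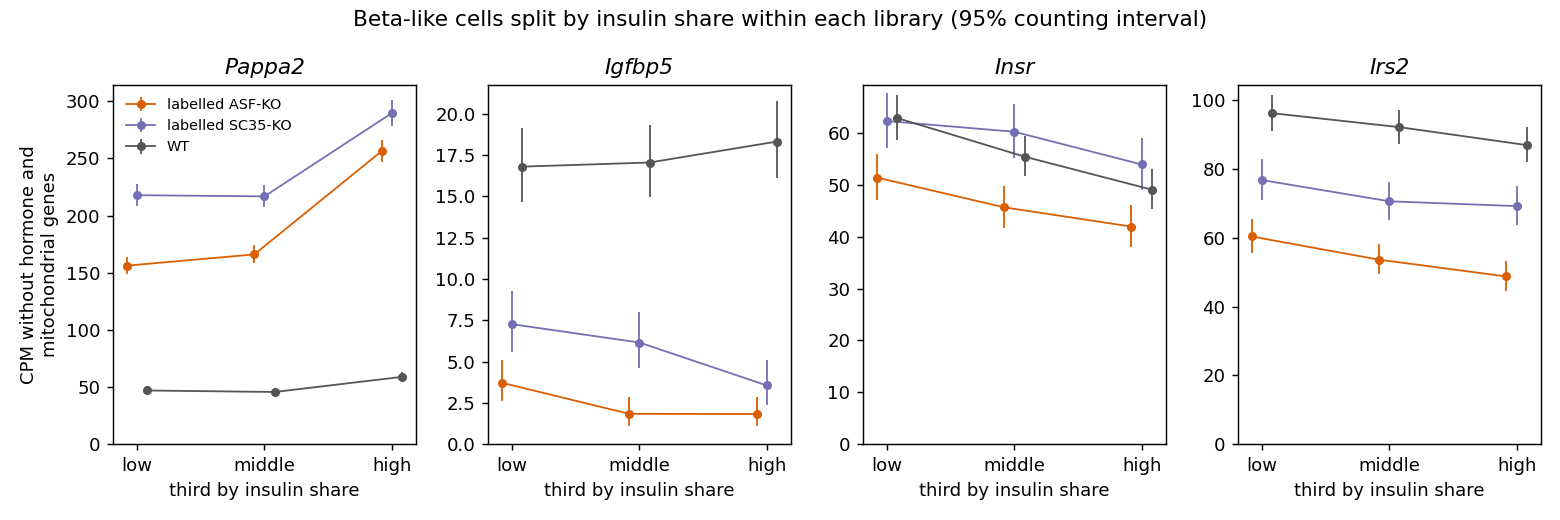
Levels of Pappa2, Igfbp5, Insr and Irs2 in beta-like cells split into 3 equal groups by insulin share within each library (CPM of the total without hormone and mitochondrial genes, exact 95% Poisson intervals), for the libraries labelled ASF-KO and SC35-KO and for WT. Pappa2 is highest in the high group of each library, and the Igfbp5 points of WT (16.8 to 18.3 CPM) stand above those of the KO-labelled libraries (1.83 to 7.27 CPM).

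Other genes of the pathway were described through 5 lists of 95 genes, of which 62 were measured in beta-like cells. For ASF-KO 3 were higher and 9 lower, where 9.05% of all measured genes were higher and 8.13% lower, with a median log2 ratio of -0.16 relative to the median gene. For SC35-KO 1 was higher and 0 lower, where 3.55% of all measured genes were higher and 2.55% lower, with a median of -0.11. The counts by list are to be read against the same shares. Among the genes that bind, release or inhibit IGFs, 1 of 5 measured was higher for ASF-KO, Igfbp7 (86.5 CPM in ASF-KO against 58.5 in WT), and 1 was lower, Igfals, whose protein stabilises IGFs in the circulation (10.4 CPM in ASF-KO against 24 in WT). Among the adaptors and negative regulators near the receptors, 1 of 10 was lower, the phosphatase gene Ptprf (71.3 CPM in ASF-KO against 165 in WT). In the PI3K, Akt and FoxO list 3 of 17 were lower: the transcription factor gene Foxo1 (20.9 CPM in ASF-KO against 52.7 in WT), the lipid phosphatase gene Inppl1 (7.06 CPM in ASF-KO against 17.7 in WT) and the kinase gene Akt1 (14.8 CPM in ASF-KO against 31.5 in WT). In the list of mTOR complex 1 and translation 1 of 17 was higher, Rheb, a GTPase that activates the complex (48.4 CPM in ASF-KO against 40.3 in WT), and 4 were lower, among them the translation repressor Eif4ebp1 (11.7 CPM in ASF-KO against 37.5 in WT), the initiation factor Eif4b (33.9 CPM in ASF-KO against 76.9 in WT) and the sestrin Sesn2 (12.4 CPM in ASF-KO against 27.7 in WT). For SC35-KO, Rheb was the 1 gene past 1.5-fold, at 48.9 CPM in SC35-KO against 40.3 in WT. That is a ratio of 1.21 on CPM and of 1.64 relative to the median gene. All these calls are relative to the median gene, so the CPM pairs show smaller rises and larger falls than that scale. On it, for ASF-KO, Rheb stood at 1.62, Foxo1 at 0.536 and Akt1 at 0.632.

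Across the 15 sums of the 5 large classes in the 3 libraries, the genes most like Pappa2 were Rhou and Tmed3 (Pearson r = 0.94 for both, on log2(CPM + 1)), Nap1l5 (0.93), Irx2 (0.92) and Cryba2 (0.91), out of 4701 genes compared. All 5 were highest in alpha-like cells, and the sums share libraries and depth. In beta-like cells Irx2, an alpha cell transcription factor gene, was at 1.67 CPM in ASF-KO, 2.26 in SC35-KO and 1.74 in WT. The genes most like Igfbp5 were Znfx1 and Cpd (r = 0.99 for both), Gpx4, Tor1aip1 and Slc44a1 (0.98 for each), all highest in endothelial-like cells. The CPM behind each r are of totals that include hormone transcripts, whose share differs between classes. The part of that share in these likenesses was not tested.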

How the data were processed

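Per the labels' protocols, islets were digested with collagenase, picked by hand, dissociated with trypsin and made into libraries with a Chromium 3′ v3 kit. The authors deposited UMI counts per gene and barcode, which are whole numbers and not normalized. Cell Ranger 5.0.0, mm10, Seurat and STAR stand in the submitters' processing notes, whose roles are not given. The members and gene lists were chosen with earlier results of these data known. A barcode was kept if it had 500 genes or more, 1000 UMIs or more and no more than 20% of UMIs from mitochondrial genes. Doublets marked per library with Scrublet (scanpy 1.11.5) were removed: 4.31% labelled ASF-KO, 7.58% labelled SC35-KO and 3.13% in WT.

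Beta-like cells had Ins1 and Ins2 at 20% of UMIs or more, Gcg and Sst under 3% and Ppy under 5%. Alpha-like, delta-like and gamma-like cells had their own hormone at 5% or more and insulin under 20%. Their other hormones were held to the same limits on Gcg, Sst and Ppy. Endothelial-like cells had at least 5 of 12 markers, macrophage-like at least 4, pericyte-like and fibroblast-like at least 3, and ductal-like cells at least 0.3% of UMIs in ductal markers. The classes gated on such markers also had insulin under 20% and Gcg, Sst and Ppy under 5%. Cells inside the hormone limits of an endocrine class, beta-like included, were left out if they passed a marker rule of a non-endocrine class. These thresholds were set on the marker distributions. UMIs were summed per class and library and divided by the class total (CPM), with exact Poisson intervals. Ratios carry exact conditional binomial intervals and shares of cells, thinned to 2000 UMIs, exact Clopper-Pearson intervals. Joint clusters came from Leiden at resolution 1.0 (igraph 0.11.9, 2000 variable genes, 30 components, 15 neighbours). Genes named are the members, Srsf1 and Srsf2, the 5 genes most like Pappa2 and Igfbp5 among those with at least 50 CPM in 1 sum, and up to 4 pathway genes per list and comparison past 1.5-fold, taken by the ratio bound nearest to 1. One pathway gene that this rule names is not reported here. The code was tested on simulated data. Gene positions are GENCODE's on GRCm38. Alternatives were other scalings, cell filters, gates, clusters, CPM minimums, cell weights, doublets kept, shared barcodes left out and, chosen after the data were seen, beta-like cells with Gcg under 0.05% of UMIs. Computing used scipy 1.17.1, numpy 2.4.6, pandas 2.3.3 and matplotlib 3.10.9 under python 3.11.15.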

Additional observations from a re-analysis of the deposited data

Results flagged for a closer look

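For Igfbp5 the library labelled SC35-KO lay on opposite sides of WT in different cell classes. Relative to the median gene its log2 ratio to WT was -1.61 in beta-like cells (148 UMIs against 717 in WT) and 0.64 in endothelial-like cells (539 UMIs against 622 in WT). The beta-like levels, 1.62 CPM in SC35-KO and 6.68 in WT, were under the 10 CPM minimum. In the endothelial-like class few cells carried the transcript. The difference between the classes was not tested, as each genotype has 1 library. The endothelial-like value came inside 1.5-fold under the stricter gate, at 0.50, and with cells weighted equally, at 0.55.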

How the results depend on the processing

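No paired analysis was possible because each genotype has 1 library, and leaving out a replicate was likewise not possible. Of 583 recomputed log2 ratios of members, 561 stayed within the counting interval of the value reported, 18 moved beyond it and 4 reversed, while 19 changed their side of 1.5-fold. Pappa2 in beta-like cells, relative to the median gene, was 1.82 with Leiden clusters and 2.05 with no CPM minimum for ASF-KO, and 2.15 with Leiden clusters for SC35-KO. The count of members past 1.5-fold in beta-like cells, 2 for ASF-KO and 1 for SC35-KO, was 1 for ASF-KO at a minimum of 50 CPM, which leaves fewer genes. With no minimum it was 5 for each, where 39.9% and 34.2% of all genes were past it. Pappa2 in endothelial-like cells for ASF-KO, 0.91 as reported, reversed to -0.85 under the stricter cell filter, -0.35 with doublets kept, -0.95 with Leiden clusters and -0.19 under the stricter gate, and the cause was not tested. With 1 library per genotype, differences between mice, preparations and genotypes cannot be told apart, and levels under 10 CPM are limited by depth.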
